A study of Mus musculus with 68 samples.

Results

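Newborn brains that lacked prosaposin altogether were compared directly with newborn brains that held a low level of it, in 8 of the 68 arrays of the series. Members were the arrays labelled PS-/- or PS-NA at 0 days, 4 of each genotype, with 2 from cerebellum and 2 from cerebrum. PS-/- mice are null for the endogenous prosaposin gene. PS-NA mice carry the same null alleles together with a prosaposin transgene that gives hypomorphic expression, so the 2 genotypes shared the knock-out and differed by the transgene. The promoter that drives the transgene was not given in the sources used here. Wild type (WT) newborns, with 4 arrays, carried both normal alleles and stood beside the 2 mutants for reference. All 3 genotypes were on the FVB strain background per the study's methods. Each array held RNA pooled from 3 mice, so the values below are those of pools, and p-values measured the spread between pools. Each genotype had 6 mice at an age, so its cerebellum and cerebrum pools drew on the same 6 mice and its 4 pools were not 4 independent groups of animals. In such bulk RNA fewer cells of a type and less RNA per cell cannot be told apart.

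Prosaposin is the precursor that lysosomes cleave into saposins A, B, C and D. These small proteins lift glycosphingolipids from membranes or activate the enzymes that degrade them, and their loss leads to storage of glucosylceramide, lactosylceramide and other lipids. Uncleaved prosaposin is also secreted and has been described as a neurotrophic factor. At birth the cerebellum is still forming its granule cells and myelin is only beginning to appear in the hindbrain.

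The endogenous gene that is null in both mutant genotypes is Psap. The 250 bases upstream of its annotated start, from RefSeq on GRCm38.p6, chr10:60277378-60277627, plus strand, are shown because this is the locus that the null allele inactivates. Capitals mark the 1 copy of TGAGTCA, the letters bound by AP-1 factors, searched on both strands and beginning at base 233 of the window. The same letters were present in 1466 of 32851 promoters of equal length (4.46%), and the match is a description of the sequence only.
Psap: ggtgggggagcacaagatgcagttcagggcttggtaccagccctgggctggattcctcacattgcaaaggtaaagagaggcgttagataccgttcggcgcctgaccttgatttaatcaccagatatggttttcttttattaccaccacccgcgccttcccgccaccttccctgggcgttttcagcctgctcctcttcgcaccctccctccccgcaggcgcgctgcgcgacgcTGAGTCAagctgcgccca

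Psap was the gene with the largest decrease among genes represented by their brightest probe set. Throughout, 4 signals given in a row are those of cerebellum pool 1, cerebellum pool 2, cerebrum pool 1 and cerebrum pool 2. The deposited signals of probe set 1415687_a_at were 422, 386, 731 and 816 in PS-/-, 8095, 8758, 6639 and 7844 in PS-NA and 20314, 21223, 25474 and 34845 in WT. Every PS-/- pool lay below every PS-NA pool, and every PS-NA pool lay below every WT pool. On the scale used for all differences below, log2(signal + 16) after quantile normalization, the difference between PS-/- and PS-NA was -3.58 (SE 0.19, limma adjusted p = 3.23e-06), or 12-fold. PS-/- differed from WT by -5.29 (adjusted p = 6.44e-10) and PS-NA from WT by -1.71 (adjusted p = 0.000393). A second probe set, 1421813_a_at, gave -3.29 (SE 0.23, adjusted p = 4.48e-05). PS-/- pools kept signals of 302 to 929 over these 2 probe sets, and the place of the probes relative to the disrupted part of the gene was not examined.

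**Figure D1:**
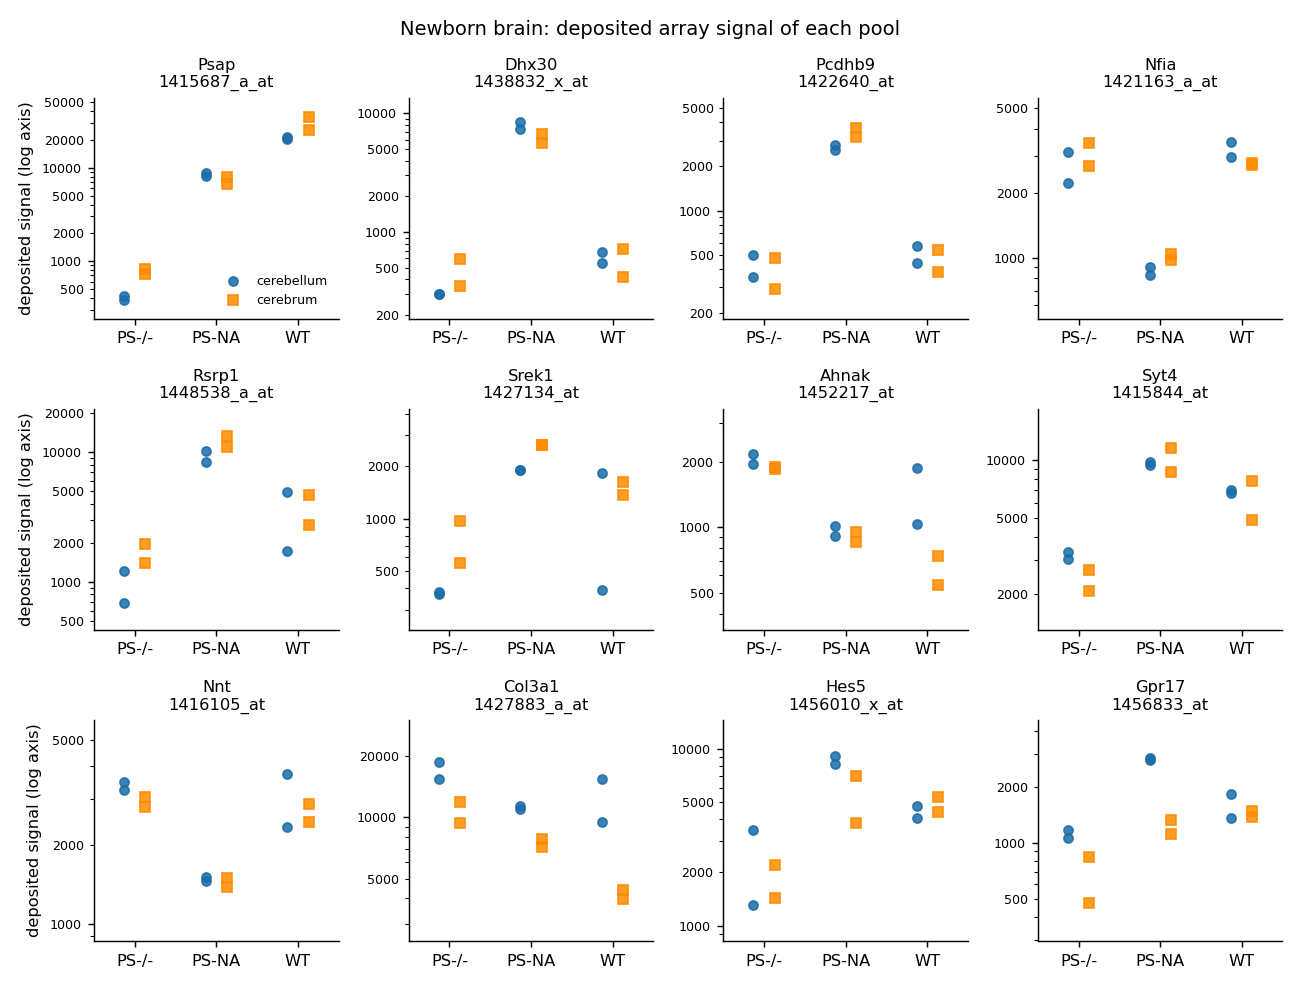
Deposited signal (log axis) of selected genes in each newborn pool, by genotype, with cerebellum and cerebrum pools as separate symbols. For Psap the 4 PS-/- pools sit between 386 and 816, the 4 PS-NA pools between 6639 and 8758, and the 4 WT pools between 20314 and 34845.

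Region labels were borne out by markers. All 10 measured region markers were apart as labelled in the 8 pools, for example Tbr1, a cortical transcription factor, at 81.7 to 128.5 in cerebellum and 4880 to 6955 in cerebrum. Median signals of the 12 newborn arrays ran from 255.7 to 340.9. The 8 mutant arrays correlated with each other at 0.935 to 0.963, and WT cerebellum pool 2 stood apart, at 0.921 to 0.943 with the other 11 arrays. WT cerebellum pool 1 correlated best with WT cerebrum pool 1, at 0.961, against 0.940 to 0.948 with the mutant cerebellum pools. The region markers were read in the mutant pools only. The actin control probe sets compare the ends of 1 transcript, and their log2 ratio of 3′ over 5′ signal, a measure of RNA integrity and labelling, was 0.163 to 0.179 in PS-/-, 0.205 to 0.236 in PS-NA and 0.215 to 0.303 in WT. The 2 mutant genotypes therefore did not overlap in this ratio. In the like ratio of the Gapdh control probe sets they did overlap, at -0.424 to -0.270 in PS-/- and -0.403 to -0.310 in PS-NA. Xist, the RNA of the inactive X chromosome, was 64, 995, 2074 and 804 in PS-/- and 353, 592, 555 and 645 in PS-NA. Of these 2 ranges that of the null pools was wider. The summed signal of 6 sex-linked genes spread most in WT, at 3552 to 10599 in cerebellum and 4245 to 23049 in cerebrum. No mutant pool exceeded 5258 in that sum. Growth hormone (Gh, probe set 1456595_x_at), a pituitary product, reached 43056 in PS-/- cerebellum pool 2 and 49430 in PS-NA cerebrum pool 1, against 90.6 to 618 in the other mutant pools. Pomc and Cga, also pituitary genes, were highest in the same 2 pools, 1 of each genotype.

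With region as a block, limma called 2151 of 45037 probe sets at an adjusted p under 0.05, or 4.78%. Of these, 1087 were higher and 1064 lower in PS-/- than in PS-NA. At the thresholds of the study's own methods, an adjusted p of at most 0.2 and a change of 1.5-fold, 3343 probe sets passed (7.42%). Each gene was then represented by its brightest probe set. Of 18193 genes, 1058 were called (5.82%), with 355 higher (1.95%) and 703 lower (3.86%) in PS-/-. The directions differed by brightness within a gene: 607 of the probe sets called higher, and 280 of those called lower, were not the brightest of their gene.

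The size of this list depended on how the spread was estimated and on single pools. It fell to 66 probe sets without the intensity trend in the variance, to 506 when the 4 WT arrays entered the fit and to 373 when all 68 arrays did. The regions share mice, and with genotype and replicate number as a random subject 1525 were called, against 273 when the regions were first averaged per replicate number, which left 2 values against 2. With the actin ratio as a covariate no probe set was called by limma, while 2116 had an unadjusted p under 0.05 against 8859 without it, so this ratio and the genotype cannot be told apart. Leaving out 1 pool gave 1101 without PS-/- cerebellum pool 1, 875 without PS-/- cerebellum pool 2, and 804, 1065, 1087 and 1001 without each of the 4 PS-NA pools. The values 875 and 1087 are those without the pools that held the high growth hormone signal. No called probe set was called in the opposite direction under any alternative.

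**Figure D2:**
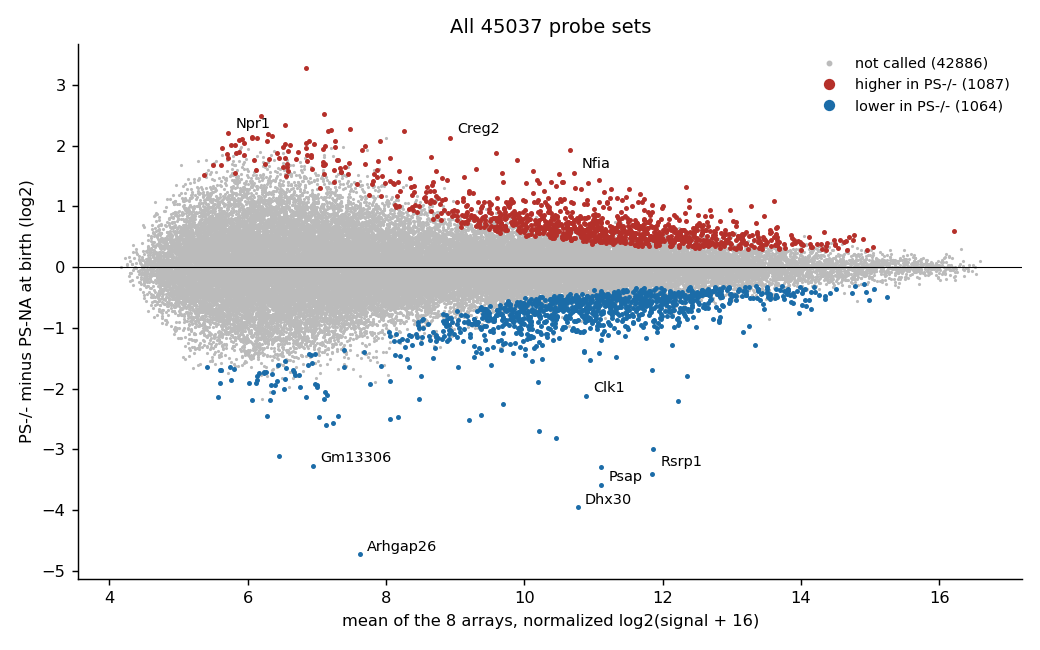
Difference between PS-/- and PS-NA at birth (log2, vertical axis) against mean normalized log2(signal + 16) (horizontal axis) for the probe sets tested, with probe sets called higher in red and lower in blue. The largest decrease, -4.73, is the Arhgap26 probe set described below, followed by Dhx30 at -3.95 and Psap at -3.58.

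A smaller set was called under nearly all of these choices. In all, 30 probe sets were called in every one of the alternatives in which they were tested except the actin covariate, 11 of them higher and 19 lower in PS-/-. They represented 24 named genes and 4 probe sets without a single gene symbol. These genes were picked out after the values were seen, and the 2 Psap probe sets are among them.

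Dhx30, an RNA helicase of mitochondrial ribosome assembly, stood out among the lower genes. Its probe set 1438832_x_at gave 304, 299, 594 and 355 in PS-/-, 7358, 8436, 5646 and 6679 in PS-NA and 554, 682, 423 and 720 in WT. PS-/- and WT pools lay together and all PS-NA pools lay at 5646 or above (log2 difference -3.95, SE 0.18, adjusted p = 1.84e-06). A second probe set, 1438969_x_at, behaved likewise at -2.20, whereas 1416140_a_at and 1453251_at of the same gene gave -0.25 and 0.41 and did not pass.

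Pcdhb9, a clustered protocadherin of neuronal surfaces, had signals of 354, 500, 477 and 293 in PS-/-, 2573, 2810, 3666 and 3175 in PS-NA and 436, 569, 537 and 382 in WT. Again the PS-NA pools stood above both other genotypes, which overlapped (log2 difference -2.70, SE 0.18, adjusted p = 2.64e-05). Pigo, which adds ethanolamine phosphate to glycosylphosphatidylinositol anchors, gave 1658, 1836, 1256 and 1144 in PS-/-, 4538, 5333, 3511 and 3917 in PS-NA and 1289, 2178, 1184 and 1321 in WT (log2 difference -1.48, SE 0.10, adjusted p = 3.5e-05). The predicted gene Gm13306 was dim, with PS-/- at 20.1, 15, 14.1 and 17.6, PS-NA at 332, 336, 266 and 366 and WT at 30.9, 33.2, 70.1 and 27.4 (log2 difference -3.27, SE 0.33, adjusted p = 0.000586). In these 3 genes the null pools sat at or near the WT level and the PS-NA pools did not.

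Syt4, a synaptotagmin of dense-core vesicles, differed in another way. Probe set 1415844_at gave 3323, 3070, 2672 and 2086 in PS-/-, 9466, 9844, 8727 and 11593 in PS-NA and 6770, 7002, 7799 and 4907 in WT. Here WT lay between the mutants and overlapped neither (log2 difference -1.79, SE 0.13, adjusted p = 5.05e-05). The second Syt4 probe set, 1415845_at, gave -0.18 and did not pass. Abhd10, a mitochondrial depalmitoylase, was also lowest in PS-/-, at 677, 721, 689 and 625 against 1612, 1666, 1745 and 1498 in PS-NA and 1521, 958, 1405 and 1450 in WT (log2 difference -1.15, SE 0.12, adjusted p = 0.000912).

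The other lower genes of this set were Odf2, a component of centriole appendages (-1.12), Rai2 (-1.35), Erdr1 (-1.28) and the zinc finger genes Zfp658 (-1.27) and Zfp82 (-1.30), all as log2 differences. Rsrp1 and Srek1 complete it and are described below. In each of these 5 the highest PS-/- pool was below the lowest PS-NA pool. Separation of this kind comes with being called. Within both regions the 2 genotypes were apart for 2136 of the 2151 called probe sets (99.3%), and for 18.0% of all probe sets.

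Among the higher genes, Nnt encodes the mitochondrial transhydrogenase that makes NADPH. Its signals were 3224, 3487, 2784 and 3056 in PS-/-, 1452, 1503, 1497 and 1376 in PS-NA and 2342, 3734, 2438 and 2862 in WT. PS-NA pools were the low ones (log2 difference 1.07, SE 0.10, adjusted p = 0.0004). Orc3, a subunit of the origin recognition complex, showed the same order, with 1318, 1333, 1196 and 1095 in PS-/-, 556, 566, 606 and 509 in PS-NA and 1149, 1038, 1173 and 956 in WT (log2 difference 1.12, SE 0.14, adjusted p = 0.00173).

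Nfia, a transcription factor of glial differentiation, was measured by 6 probe sets. Probe set 1421163_a_at gave 3112, 2236, 3441 and 2691 in PS-/-, 830, 909, 1040 and 971 in PS-NA and 3486, 2962, 2780 and 2714 in WT (log2 difference 1.55, SE 0.12, adjusted p = 0.000133). PS-/- and WT overlapped and PS-NA was below both. Probe set 1438236_at was also higher at 1.08, while the brightest, 1456087_at, gave 0.08 (adjusted p = 0.871).

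The other higher genes of this set had various roles. Adgrl3, an adhesion receptor of the latrophilin family, was at 4435, 3931, 3894 and 3159 in PS-/- and 1833, 1871, 1746 and 1471 in PS-NA (log2 difference 1.13, SE 0.10, adjusted p = 0.000301). Dnm3, a neuronal dynamin, was higher by 1.24, and Agap1, an Arf GTPase activator of endosomal traffic, by 0.97. The scaffold gene Ahnak was higher by 1.05 in its bright probe set, at 1845 to 2178 in PS-/- and 859 to 1018 in PS-NA, while its 3 dim probe sets did not pass. Prdm2, a histone methyltransferase (1.39), Fam120b (1.38) and Irf2bpl (1.07) were higher as well. For all of these, PS-/- and PS-NA pools did not overlap, as within both regions for 99.3% of called probe sets.

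Clk1 and Srek1, which act in RNA splicing, and Rsrp1 had large decreases and a wide spread in WT. They are described together after their values were seen, and splicing genes as a group were not tested. Rsrp1, an arginine and serine rich protein, had signals of 1350, 526, 2928 and 531 in PS-/-, 12140, 11126, 13275 and 12321 in PS-NA and 6403, 1203, 6754 and 2805 in WT in probe set 1417001_a_at. PS-NA pools were uniform and high, and the WT pools spanned much of the gap between the mutants (log2 difference -3.40, SE 0.37, adjusted p = 0.00109). Its probe set 1448538_a_at gave -3.00 and was one of the 30 above. Clk1, a kinase that phosphorylates splicing factors, was at 914, 413, 1742 and 686 in PS-/-, 4137, 3187, 5252 and 3548 in PS-NA and 4111, 618, 3958 and 2059 in WT (log2 difference -2.11, SE 0.27, adjusted p = 0.00215). Srek1, a splicing regulator, was at 370, 380, 971 and 560 in PS-/-, 1912, 1897, 2655 and 2634 in PS-NA and 1822, 389, 1615 and 1369 in WT (log2 difference -1.89, SE 0.16, adjusted p = 0.000187). In all 3 genes WT cerebellum pool 2 was the lowest WT pool and lay within the PS-/- range.

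Probe sets of other splicing genes pointed both ways within a gene. For Rbm39, a splicing coactivator, 1426671_a_at gave -0.71 (adjusted p = 0.00989) and 1438420_at gave 1.38 (adjusted p = 0.00142). For Luc7l2, a U1 associated factor, 1436165_at gave -0.66 and 1436766_at gave 1.87, both called. Over the array 242 genes had 2 or more called probe sets, 220 of them in 1 direction and 22 in both. These 2 genes were chosen after their values were seen.

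The remaining genes with the 15 largest decreases were mostly dim. Hypothetical or testis transcripts such as 4930524O08Rik (-2.18), 1700121N20Rik (-1.97), Map2k3os (-1.94), 4930483J18Rik (-1.91) and Prm2, a sperm protamine (-1.92), had signals of 231 or less in all mutant pools. The same held for Ceacam18, Il2rb, an interleukin receptor chain (-1.77), and Asb15 (-1.76). Fancm, a helicase of DNA repair, was brighter, at 202, 40.3, 325 and 148 in PS-/- and 687, 571, 415 and 898 in PS-NA (log2 difference -1.79, SE 0.41, adjusted p = 0.0303).

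Creg2, a secreted glycoprotein of brain, had the largest increase after that of the dim Npr1 among genes represented by their brightest probe set. Its signals were 1594, 1182, 809 and 485 in PS-/-, 218, 167, 208 and 135 in PS-NA and 2949, 1316, 1281 and 838 in WT. PS-/- and WT overlapped and PS-NA lay below both (log2 difference 2.12, SE 0.26, adjusted p = 0.00172). L3hypdh, an enzyme of hydroxyproline breakdown, had the same order, with 394, 409, 200 and 344 in PS-/-, 84.8, 114, 64.3 and 144 in PS-NA and 525, 459, 510 and 394 in WT (log2 difference 1.49, SE 0.33, adjusted p = 0.0254).

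Alas2, the erythroid enzyme of haem synthesis, was instead highest in PS-/-, at 2926, 2777, 1546 and 2605 against 877, 826, 873 and 941 in PS-NA and 370, 1616, 477 and 785 in WT (log2 difference 1.40, SE 0.18, adjusted p = 0.0023). It was the only called gene of 17 measured blood cell genes, and no haemoglobin gene on that list passed. Scube1, a secreted protein of endothelium and platelets (1.26), Edn1, the vasoconstrictor endothelin (1.75), Gpr4, a proton sensing receptor (1.63), and Tnni2, a troponin of fast muscle (1.68), were higher too. The others among the 15 were Npr1, a natriuretic peptide receptor (2.20), the cytokine gene Il7 (1.79), Calhm6 (1.87), Prss54 (1.85), Ppp1r10, a regulator of protein phosphatase 1 (1.47), 5330434G04Rik (1.97), 9530059O14Rik (1.78) and 1700011L22Rik (1.60). All but Ppp1r10 of these stayed at signals of 192 or less in the mutant pools.

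The same contrast was open to a second measurement in other mice, PS-/- at 25 days against PS-NA at 4 weeks, with 4 pools each. That comparison called 168 probe sets (0.373%). Of these, 43 were also called at birth, which is 25.6% of the later list and 2.0% of the birth list. The direction was the same for 37 and opposite for 6. Of the 37, PS-NA lay farther from WT at birth than PS-/- in 29 (78.4%), and PS-/- lay farther in 8. Among all called probe sets PS-NA lay farther in 41.0%. Without the intensity trend 4 rather than 37 were called at both ages in 1 direction.

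Psap was -2.45 in the older pools (adjusted p = 0.000632). Dhx30 was -3.77, Pcdhb9 -2.78, Pigo -1.63 and Gm13306 -3.90, each called again. Nfia was 2.12 and Nnt 0.94, also called. By contrast, Rsrp1 was 0.36 (adjusted p = 0.665) in 1448538_a_at, Srek1 -0.09 and Clk1 0.29 at the later age, and none of them passed. The change between ages itself, by limma, was 3.36 for Rsrp1 (adjusted p = 2.98e-05), 1.80 for Srek1 (adjusted p = 0.00964) and 2.40 for Clk1 (adjusted p = 0.0172). These 3 genes were picked for their large differences at birth, and the same newborn arrays entered this test. Its p-values are therefore not independent of that choice.

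**Figure D3:**
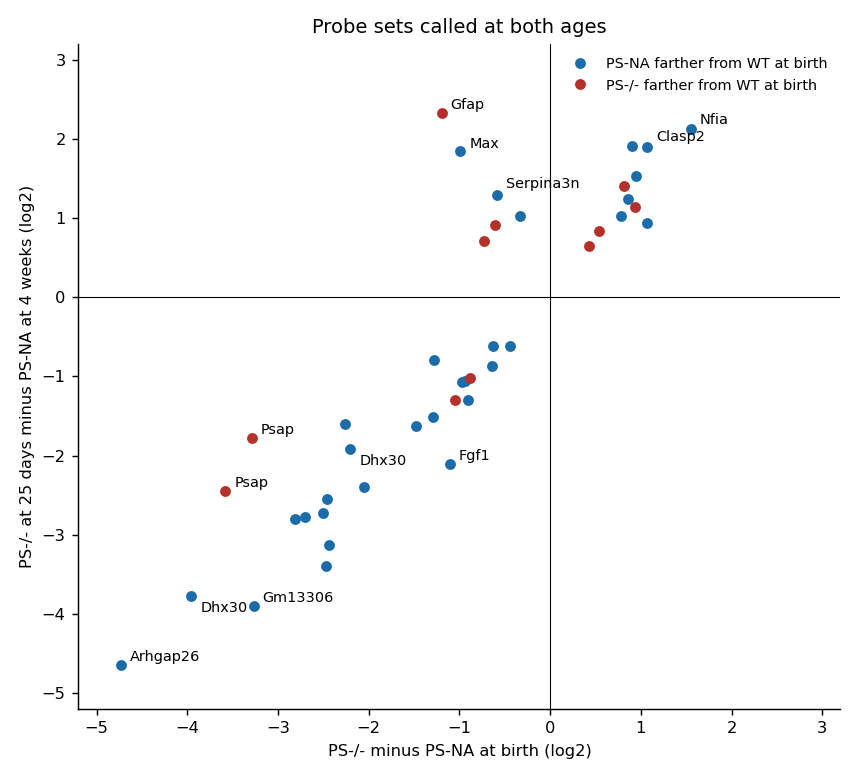
Difference between PS-/- and PS-NA (log2) near 4 weeks (vertical axis) against the same difference at birth (horizontal axis), for the 43 probe sets called at both ages, coloured by which mutant mean lay farther from WT at birth. Points in the lower left and upper right are the 37 with 1 direction, and the 6 in the upper left were lower in PS-/- at birth and higher near 4 weeks.

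The widest difference of all was that of 1 probe set of Arhgap26. Probe set 1444128_at gave 92.7, 7.6, 3.6 and 6.6 in PS-/-, 1107, 870, 802 and 1122 in PS-NA and 129, 10.4, 6.0 and 54.3 in WT. PS-NA pools were high and the other genotypes were at or near the dim end of the array (log2 difference -4.73, SE 0.48, adjusted p = 0.000586). The later difference was -4.65 (adjusted p = 0.0067). The 3 other Arhgap26 probe sets did not pass at birth, with log2 differences of -0.08, -0.31 and 0.57.

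Wdr82, a subunit of a histone methyltransferase complex, was at 6833, 6644, 7826 and 6894 in PS-/-, 14415, 13743, 13099 and 14944 in PS-NA and 5988, 7133, 7092 and 6010 in WT (log2 difference -0.97, SE 0.08, adjusted p = 0.000212). Ctdspl, a small phosphatase, was at 252, 307, 387 and 375 in PS-/-, 792, 1032, 1094 and 791 in PS-NA and 177, 365, 388 and 167 in WT (log2 difference -1.29, SE 0.19, adjusted p = 0.00419). In both genes PS-NA was the genotype apart and the later difference was called, at -1.07 and -1.52.

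Other genes lower at both ages were Alas1, the first enzyme of haem synthesis (birth -2.26, later -1.60), Atp2c1, a Golgi calcium and manganese pump (-2.05 and -2.40), Pik3r4, the regulatory subunit of the class III phosphatidylinositol kinase (-0.90 and -1.30), and Abhd14a (-1.28 and -0.79). The growth factor gene Fgf1 (-1.10 and -2.10), the ubiquitin ligase gene Rnf14 (-0.63 and -0.62), the deacetylase gene Sirt1 (-1.04 and -1.29), Sash1 (-0.44 and -0.62), Fam219a (-0.64 and -0.87) and Plekhh1 (-0.89 and -1.03) were lower too. Car8, a Purkinje cell gene, was lower at both ages in 1457904_at (-2.46 and -2.55), while its brighter 1427482_a_at was called at birth only (-0.80 and -0.51). At birth Alas1 was -0.46 in PS-/- minus WT and 1.80 in PS-NA minus WT, and Atp2c1 was -0.57 and 1.49. Sirt1 went the other way, at -1.05 and -0.01.

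Genes higher at both ages included Clasp2, a microtubule plus end protein (1.07 and 1.90 in 1427328_a_at), and Clec3b, or tetranectin (0.91 and 1.91). Abca1, the cholesterol exporter (0.82 and 1.41), and Insig1, a sterol sensor of the endoplasmic reticulum (0.42 and 0.65), were among them. Nbr1, an autophagy receptor (0.54 and 0.84), Sult1a1, a sulfotransferase (0.93 and 1.15), and Pisd-ps3 (0.86 and 1.24) were the others with a symbol. Clasp2 at birth was -0.04 in PS-/- minus WT and -1.11 in PS-NA minus WT, whereas Abca1 was 0.66 and -0.16.

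Some of the 28 genes with 1 direction at both ages lay in the same stretches of a chromosome. In the RefSeq gene order of GRCm38.p6, 9 lay on chromosome 9, from Atp2c1 to Clec3b, within 483 of the 2487 annotated genes of that chromosome. That stretch held 246 measured genes, of which 38 had any probe set called (15.4%), against 8.99% of all genes by the same count. On chromosome 4, Fam219a, Gm13306 and Pigo lay within 71 of 2923 genes, where 6 of 15 measured genes had any probe set called. Nfia, Abca1 and Car8, the other genes of chromosome 4 with 1 direction at both ages, lay outside that stretch. On chromosome 18, Pcdhb9, Rnf14, Arhgap26 and Fgf1 lay within 78 of 1325 genes, where 7 of 33 measured genes had any probe set called. The stretches were bounded by the genes themselves after their values were seen, and no test was made of them. The genes called at both ages count among the called genes of each stretch, as 9 of the 38, 3 of the 6 and 4 of the 7. They are called by definition, so the choice of stretch itself raises these shares, and the 8.99% of all genes is not a like comparison.

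**Figure D4:**
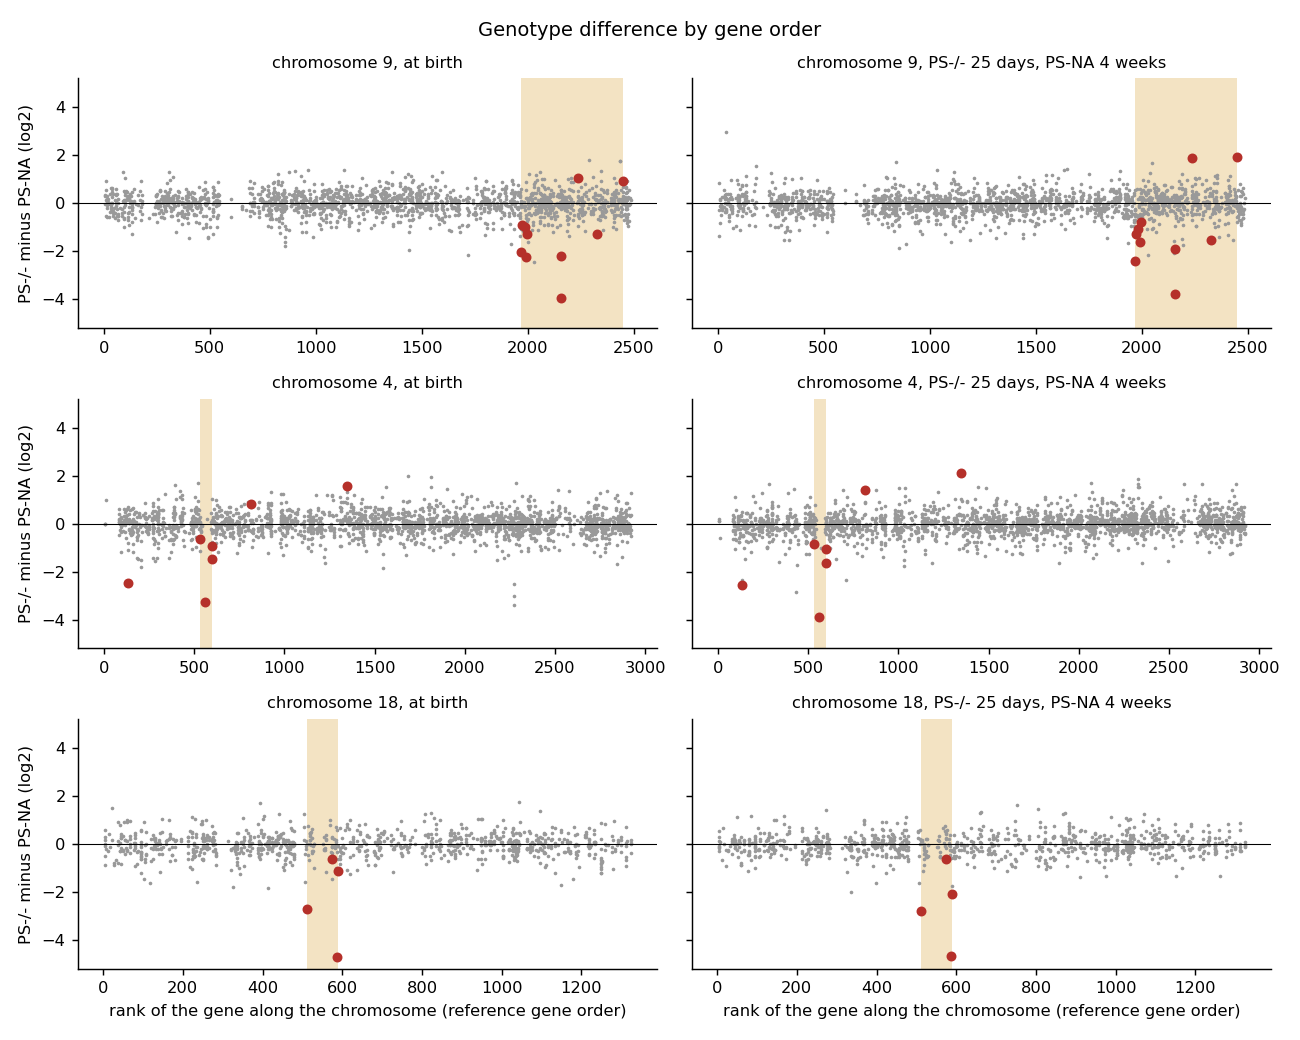
Difference between PS-/- and PS-NA (log2, vertical axis) against the rank of each measured gene along chromosomes 9, 4 and 18 (horizontal axis), at birth on the left and near 4 weeks on the right. Red points are genes called at both ages in 1 direction, so by definition they keep their side of 0 in both columns. Shaded bands are the stretches given above.

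Over whole chromosomes other than Y the share of genes called ran from 3.88% to 7.78%. Chromosome 9 had the highest share, and chromosome 10, which carries Psap, had 7.21%. Among the 250 annotated genes on each side of Psap, 188 were measured with Psap itself and 11 were called, or 5.85%, near the 5.82% of all genes. Ostm1, a lysosomal chloride channel subunit (0.41), Bend3 (0.77), Macroh2a2, a histone variant (0.38), and Spock2, a matrix proteoglycan (0.45), were higher. Qrsl1 (-0.75), Hsf2, a heat shock factor (-1.46), Tet1, a DNA demethylase (-0.77), Sirt1 (-1.04), Fam13c (-0.53) and Ipmk, an inositol phosphate kinase (-0.59), were lower.

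Gene groups were read against the background of all genes, whose median difference was -0.05 on the log2 scale. Of all genes 5.82% were called, with 1.95% higher and 3.86% lower in PS-/-. The extracellular matrix and meninges group had the highest median. Of 23 measured genes 7 were higher in PS-/- and none was lower, with a median of 0.35, and 21 of the 23 had a positive difference. Fn1, or fibronectin, was at 5135, 5555, 7399 and 7020 in PS-/- and 2948, 3012, 3786 and 3955 in PS-NA, without overlap (log2 difference 0.85, SE 0.08, adjusted p = 0.000373). The fibrillar collagen genes Col1a1 (0.84), Col3a1 (0.49) and Col1a2 (0.46), Col6a1 (0.43), Postn, or periostin (0.69), and Clec3b (0.91) were higher. The summed signal of the group was 121608 to 136492 in PS-/- cerebellum against 102385 to 102418 in PS-NA cerebellum, and 101615 to 117808 against 87237 to 90206 in cerebrum. In WT it was 91381 to 109933 and 67789 to 71497.

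The matrix count depended on the samples in the fit. It was 0 without the intensity trend or with the actin ratio, 1 with the WT arrays in the fit, and between 2 and 5 without either PS-/- cerebellum pool or any 1 PS-NA pool. This group also marks meningeal cells, and the amount of meninges in each pool was not measured. Genes of endothelium and mural cells had a median of 0.25 with 0 of 21 called, among them Vwf at 0.44 (adjusted p = 0.102) and Rgs5 at 0.44 (adjusted p = 0.0525). Col4a1, a basement membrane collagen, was higher in both of its probe sets, with 1452035_at at 13701 to 16805 in PS-/- and 6528 to 7904 in PS-NA, and was looked at after its values were seen.

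Oligodendrocyte and myelin genes ran the other way. Of 21 measured genes 3 were lower and none higher, with a median of -0.25. Gpr17, a receptor of committed oligodendrocyte precursors, was at 1178, 1066, 845 and 477 in PS-/- and 2789, 2843, 1326 and 1110 in PS-NA (log2 difference -1.02, SE 0.16, adjusted p = 0.0059). Mbp, or myelin basic protein, was at 4966, 5523, 1183 and 971 and 14311, 12895, 1255 and 1487 in its brightest probe set, with the wider gap in cerebellum (log2 difference -0.79, SE 0.18, adjusted p = 0.0297), although no difference between regions passed. Sox10, the transcription factor of the lineage, gave -0.51 on the log2 scale (adjusted p = 0.0365). The count of 3 fell to 1 without PS-/- cerebellum pool 2, without either PS-NA cerebellum pool or without PS-NA cerebrum pool 2. Of 8 Mbp probe sets 6 were lower, 1425264_s_at did not pass and 1425263_a_at was higher at 0.87. WT was at 11440, 6070, 1370 and 1860 for Mbp, so cerebellum pool 2 of WT lay near the PS-/- pools. The summed signal of the group in cerebellum was 81066 to 83910 in PS-/-, 96985 to 104748 in PS-NA and 82842 to 85721 in WT. In cerebrum it was 52502 to 54968, 60913 to 65110 and 58470 to 60715. Group medians were -0.11 for PS-/- minus WT and 0.19 for PS-NA minus WT.

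Genes of cerebellar granule cell precursors and the Sonic hedgehog pathway showed 4 of 20 lower and none higher, with a median of -0.17. The difference was negative in 13 and positive in 7, where 10213 of all 18193 genes were negative. Atoh1, Barhl1, Zic1 and Gli1 were among the members not called. Shh, the ligand itself, was at 974, 1080, 807 and 730 in PS-/- and 2291, 2048, 1965 and 1238 in PS-NA (log2 difference -0.94, SE 0.15, adjusted p = 0.00613). Its receptor gene Ptch1 gave -0.66, adjusted p = 0.0253, and Gli2, which carries the signal to the nucleus, gave -0.71, adjusted p = 0.0111. Neurod1, a transcription factor of differentiating granule cells, was at 3306, 3443, 2771 and 2275 and 5676, 5669, 3796 and 4115 (log2 difference -0.68, SE 0.09, adjusted p = 0.00255). Hes5, a target of Notch in progenitors, is not in this group but in that of astrocytes and radial glia. It was at 3490, 1315, 2212 and 1436 in PS-/- and 8208, 9034, 3792 and 7044 in PS-NA in probe set 1456010_x_at (log2 difference -1.69, SE 0.26, limma adjusted p = 0.00518). The granule cell and hedgehog count of 4 was 2 without PS-NA cerebellum pool 1 and 0 without the intensity trend. For Ptch1 the mean over all its probe sets gave a positive value of 0.40.

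Among 21 astrocyte and radial glia genes, Hes5 and Aqp4, the water channel of astrocyte endfeet (-0.67, adjusted p = 0.00982), were lower, and Nes, or nestin (0.73, adjusted p = 0.0172), was higher. Purkinje cell genes had 1 of 14 called, Car8. Of 26 synapse genes 4 were lower, namely Cplx1, or complexin (-0.46), Vamp1 (-0.65), Snap25 (-0.39) and Slc32a1, the transporter that loads GABA into vesicles (-0.41). Leaving out PS-/- cerebellum pool 1, PS-/- cerebellum pool 2 or PS-NA cerebellum pool 2 left 0 of these 4. Of 23 forebrain neuron genes Rorb was higher (0.83), and none of 20 hindbrain position genes was called.

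Among the lysosomal and lipid groups, the setting in which prosaposin acts, the cholesterol group held the most calls, 5 of 23. Of 18 genes of glycosphingolipid degradation, Psap was lower and Gba2, the non-lysosomal glucosylceramidase, was higher, with signals of 4613, 3960, 4020 and 4112 in PS-/- and 3171, 3398, 2811 and 2852 in PS-NA (log2 difference 0.46, SE 0.09, adjusted p = 0.0172). Of 30 genes of lysosomal proteases and membrane proteins, Igf2r, the sorting receptor for lysosomal enzymes (0.61, adjusted p = 0.014), and Lipa, the acid lipase (0.43, adjusted p = 0.0368), were higher. Of 28 genes of glycosphingolipid synthesis, St3gal2, a ganglioside sialyltransferase (0.43, adjusted p = 0.0189), was higher. The cholesterol genes went both ways, with Insig1 (0.42), Dhcr7 (0.44) and Cyp51 (0.35) higher, and Sc5d (-0.57) and Apoe (-0.36) lower.

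Of 25 microglia and macrophage genes, F13a1 (0.75, adjusted p = 0.0127) and Mrc1 (0.49, adjusted p = 0.0321), which mark macrophages at brain borders, were higher, and the median of the group was -0.05. Apoe was the only called gene of 20 disease-associated microglia genes and was lower. No gene of 23 in the interferon group was called, with Irf9 at -0.51 (adjusted p = 0.0909) and H2-K1 at 0.24 (adjusted p = 0.173).

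Stress and housekeeping groups held 0 to 4 calls each, to be read beside the 5.82% of all genes that were called. Hspa1b, an inducible heat shock protein, was lower at 5384, 7223, 2737 and 2542 in PS-/- against 9750, 9483, 6999 and 7036 in PS-NA (log2 difference -0.99, SE 0.14, adjusted p = 0.00419). Jund, of 25 immediate early genes (0.50), and Slc2a1, the glucose transporter of the blood brain barrier (0.41), were higher, and Phgdh, of serine synthesis (-0.36), was lower. The clock genes Cry1 (-0.75) and Dbp (-0.53) were lower, and Zbtb16 (0.51) and Cebpd (0.63), which respond to glucocorticoids, were higher, of 22. In oxidative phosphorylation Cycs (-0.42) and Uqcrc1 (-0.27) were lower, of 24. None of 24 cell cycle genes and none of 15 ribosomal protein genes passed. The choroid plexus gene Folr1 was lower (-0.69), 1 of 16 in its group, and Tnni2 was 1 of 20 muscle, skin and cartilage genes.

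None of 19 genes of monoamine and peptide neurons and pituitary was called. Of 6 sex-linked genes, with a median of -0.64, none passed, with Uty at -1.02 (adjusted p = 0.0777) and Eif2s3y at -0.91 (adjusted p = 0.0745). With the mean of 3 Y genes as a covariate 762 probe sets were called. Among 32 measured genes that the study names in its own array results, Creg2, Clasp2 and Cebpd were higher and Mbp was lower. The Cebpd call lay close to the threshold (limma adjusted p = 0.0472) and held in 6 of 24 alternatives. In neither region alone did Cebpd pass (limma adjusted p = 0.202 in cerebellum and 0.422 in cerebrum). The list of 32 was chosen on these samples and is not independent evidence.

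**Figure D5:**
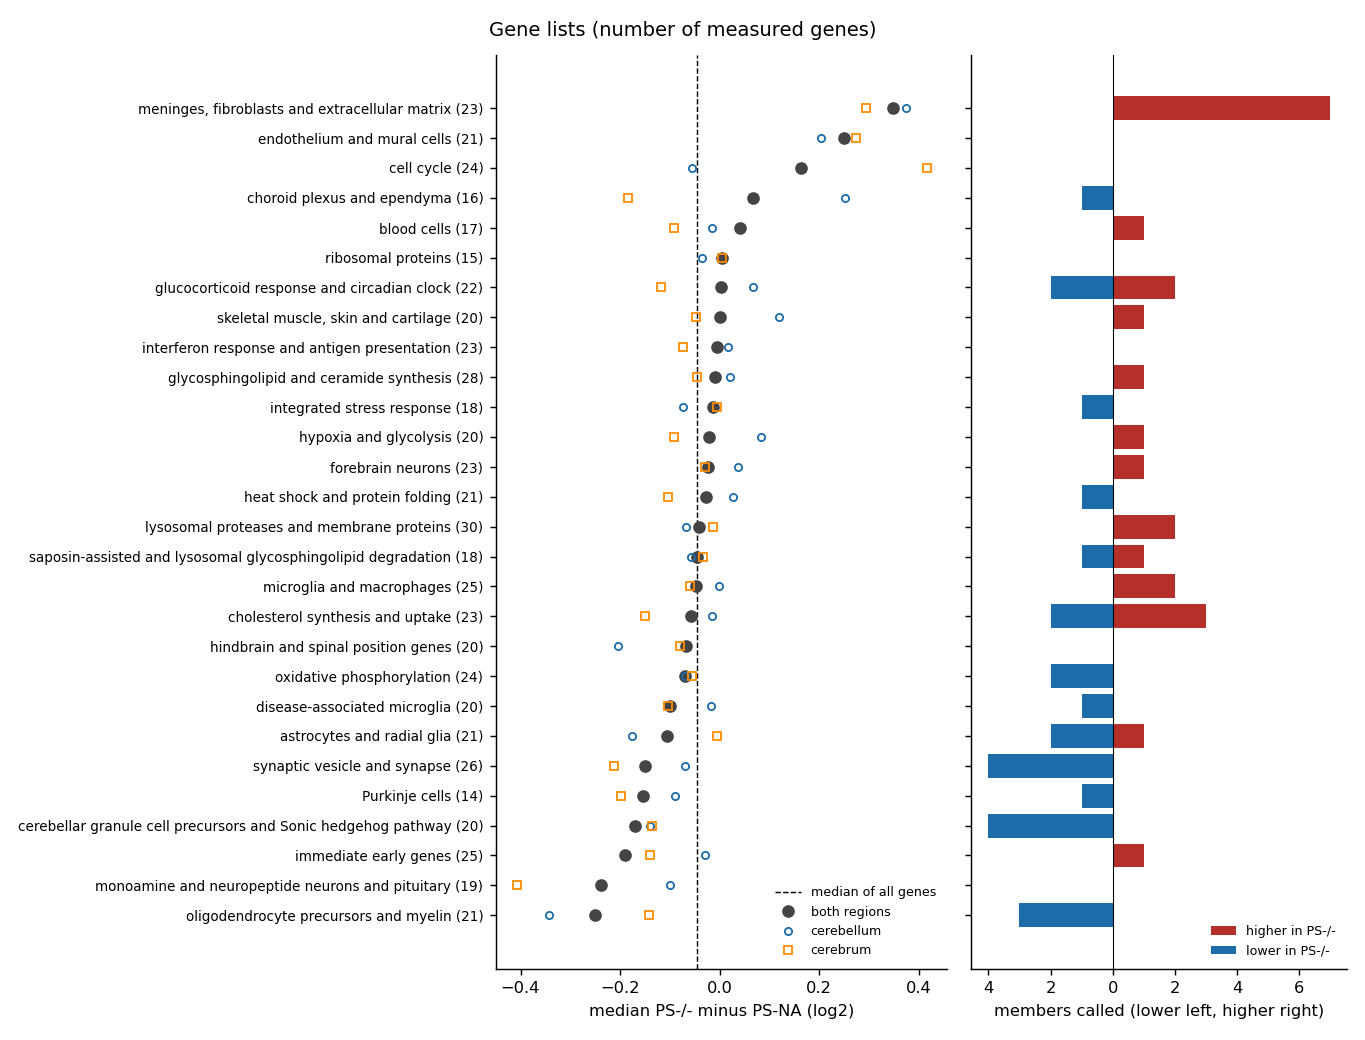
Left, median difference between PS-/- and PS-NA at birth (log2, horizontal axis) of each gene group other than the sex-linked genes and the study's own list, for both regions (filled) and for each region (open), with the median of all genes dashed, and right, the number of members called lower and higher. Among the groups drawn, by the filled points, the matrix group lies farthest to the right at 0.35 with 7 members higher, and the myelin group farthest to the left at -0.25 with 3 members lower.

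Contrasts within each region, taken from 1 fit of the 4 genotype by region means with a shared spread, gave shorter lists. In cerebellum 64 probe sets were called (0.142%) and in cerebrum 128 (0.284%). Both lists held 37 of them, 57.8% of the cerebellum list and 28.9% of the cerebrum list, and all 37 had the same direction. A test of the difference between regions called none (0.0%) by limma, with 1851 at an unadjusted p under 0.05. Psap was -4.10 in cerebellum and -3.06 in cerebrum, and Mbp was -1.32 and -0.26 in its brightest probe set. Single pools moved these counts widely, to as few as 6 in cerebellum without either PS-NA cerebellum pool, and to 1223 in cerebrum without PS-/- cerebrum pool 1.

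Against WT, PS-/- differed in 538 probe sets (1.19%) and PS-NA in 103 (0.229%). The order of these counts was not stable, and without the intensity trend they were 2 for PS-/- and 39 for PS-NA. PS-NA also had the larger count when PS-/- cerebellum pool 2, PS-/- cerebrum pool 2 or WT cerebrum pool 1 was left out. Both comparisons share the WT pools, and each shares pools with the direct comparison, so their values are given side by side only. Leaving out WT cerebellum pool 2 raised the counts to 4546 and 1291. Dhx30 was -0.48 in PS-/- minus WT and 3.47 in PS-NA minus WT, and Nfia was -0.05 and -1.60. Fn1 was 0.92 and 0.07, and Syt4 was -1.22 and 0.58. Creg2 was -0.55 and -2.67, and Rsrp1 was -1.31 and 1.69 in 1448538_a_at. The difference from WT passed for PS-NA in Dhx30, Nfia, Creg2 and Rsrp1 and for PS-/- in Syt4 and Rsrp1, and Fn1 passed in neither (adjusted p = 0.0535 for PS-/-).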

How the data were processed

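Total RNA pools were hybridised to Affymetrix Mouse Genome 430 2.0 arrays. The deposited values are signal intensities on a linear scale that the authors made with GCOS 1.1, 1 column per array. From these intensities, 16 was added, log2 taken and quantile normalization applied over all 68 arrays, and 45037 probe sets remained after 64 control probe sets were left out. PS-/- was compared with PS-NA in the 8 newborn arrays with region as a block, by limma 3.58.1 in R 4.3.3 with an intensity trend and Benjamini-Hochberg adjustment, at a threshold of 0.05. The fit had 5 residual degrees of freedom, and the number of arrays limits its precision. Comparisons with WT used 12 arrays, and the older comparison was fitted likewise. The fits were tested on simulated data.

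Names came from the platform annotation, which gave 34958 probe sets 1 symbol, 932 several and 9211 none. A gene was represented by its brightest probe set. Names in the text are the 15 largest called changes in each direction, the called members of each gene list and of the genes around Psap, and, where a list had none, those with the smallest p-values. Other genes, such as those called at both ages or under nearly all alternatives, were chosen after their values were seen. Members and lists were chosen with earlier results of these data known. Within a genotype, cerebellum and cerebrum pools of 1 replicate number deviated together with correlations of 0.08 in PS-/- and 0.03 in PS-NA. The labels do not say whether a number marks the same mice, so the numbers were not taken to pair samples, and a random subject term was an alternative (consensus correlation 0.124). Alternatives covered the added constant, centring, a signal filter at 200, the variance model, the arrays in the fit, blocks and covariates, and each pool left out.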

Additional observations from a re-analysis of the deposited data

Results flagged for a closer look

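The direct comparison of PS-/- with PS-NA changed direction with age for 6 probe sets, each lower in PS-/- at birth and higher in PS-/- at 25 days than in PS-NA at 4 weeks. They were picked because they were called at both ages in opposite directions. All 6 also passed the test of the difference between ages (limma, adjusted p). That test used the same 16 arrays, so passing was nearly fixed by the choice and adds no support. These ages are not matched exactly, and the older pools are of other mice.

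Gfap, the intermediate filament of astrocytes, had the widest turn, 3.53 on the log2 scale. In probe set 1440142_s_at its newborn signals were 202, 147, 176 and 295 in PS-/- and 581, 449, 576 and 598 in PS-NA. The difference was -1.20 at birth and 2.33 later (adjusted p of the turn = 2.78e-05). The brighter Gfap probe sets gave -0.49 and -0.36 at birth and did not pass there. Max, the dimerisation partner of Myc, turned by 2.83, from -0.99 to 1.84, and its PS-/- pools ranged from 1111 to 3357. Serpina3n, a serine protease inhibitor of reactive astrocytes, turned by 1.87, from -0.58 to 1.29. Itih3, an inter-alpha-trypsin inhibitor chain, turned by 1.515, from -0.60 to 0.91. Aldoc, the aldolase of astrocytes and Purkinje cells, turned by 1.44, from -0.73 to 0.71. Grn, the lysosomal protein progranulin, turned by 1.355, from -0.33 to 1.03, and its newborn pools differed by 1.25-fold only.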

How the results depend on the processing

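The main list of 2151 probe sets and 1058 genes rested on 4 pools a side, drawn from 6 mice per genotype. It became 66 probe sets and 21 genes without the intensity trend, 222 and 115 with an unmoderated linear model, 506 and 231 with the WT arrays in the fit, 373 and 198 with all 68 arrays, 273 and 126 with the mean of the regions per replicate number, 762 and 338 with the Y gene covariate, and 0 and 0 with the actin ratio. The mean over a gene's probe sets gave 547 genes. Leaving out each pool in turn gave 804 to 2424 probe sets and 390 to 1301 genes. The 3343 probe sets at the study's thresholds became 2001, 1885, 1160, 2047 and 0 with the unmoderated model, the WT arrays, all arrays, the mean of regions and the actin ratio. Median centring, other constants, the filter at 200, group means, a random subject term and array weights gave between 1525 and 3174 calls in the main comparison, and the cause of the larger shifts was not tested.

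With the replicate number as a block, 1388 probe sets and 671 genes were called, 8 in cerebellum, 16 in cerebrum, and 1133 in PS-/- against WT.

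The 64 calls in cerebellum became 98 with median centring, 159 with the filter, 1 without the trend, and 6 to 322 without 1 pool. The 128 in cerebrum became 545 with the filter, 0 without the trend, where limma had fewer calls throughout, and 9 to 1223 without 1 pool. The test between regions called 1 with the filter. PS-/- against WT, 538, gave 1151 with median centring, 1097 with the filter, 2 without the trend and 28 to 4546 without 1 pool, and PS-NA against WT, 103, gave 39 and 35 to 1291. The 37 calls shared with the older pools became 4 without the trend.

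Among the 96 genes named by rule, no direction turned except with the actin ratio, where Prss54 gave -0.13, 1700121N20Rik 0.23, Apoe 0.0094, Lmx1b 0.23, Uty 0.58 and Macroh2a2 -0.19, and with the mean over probe sets, where H2-K1 gave -0.045, Ptch1 0.40 and Uty 0.057. Without the trend 74 of the 96 lost their call, and 22 kept their side of the threshold. Those 22 include every named gene that was not called in the main fit, such as Irf9, H2-K1 and Vwf. The number that stayed called was therefore smaller than 22. Genes with signals under about 200 are near the dim end of the array, where the fitted spread is widest.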
